A study of Mus musculus with 20 samples.

Results

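The question was how far the transcriptional response to an inhibitor of the CBP and EP300 bromodomains differs between the monocytic and the granulocytic myeloid-derived suppressor cells (MDSC) sorted from tumours in mice. For each gene it was read from 1 contrast. The log2 response of granulocytic cells (gMDSC) to the inhibitor GNE-781 (CBPi) was taken, and the log2 response of monocytic cells (mMDSC) was subtracted from it. A positive difference means that the ratio of CBPi to vehicle was larger in gMDSC, and a negative one that it was larger in mMDSC. The members of the contrast are libraries, chosen by their labels for cell type and treatment, and they number 20 of 20 in the study. They fall into 4 groups of 5, namely mMDSC vehicle (libraries 1 to 5), mMDSC CBPi (6 to 10), gMDSC vehicle (1 to 5) and gMDSC CBPi (6 to 10).

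All groups came from female SCID.beige mice, 6 to 8 weeks old, which lack T cells, B cells and functional NK cells. The mice carried tumours under the skin. These were grown from CT26, a colon carcinoma line of the mouse, or from MDA.MB.231-X1.1, whose parent is a line of human breast cancer, and no library is tied to one of them. Dosing began once tumours averaged 150 to 200 mm3, with the vehicle MCT or with GNE-781 at 25 mg/kg by oral gavage, BID, for 7 days. Cells positive for CD45, CD11b and Ly6C and negative for F4/80 were sorted from digested tumours, mMDSC without Ly6G and gMDSC with it. Whether libraries came from separate mice is not stated, so the p-values measure only the spread between these libraries, part of which may be technical.

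CBP and EP300 are closely related histone acetyltransferases that act as coactivators of many transcription factors. Their bromodomain binds acetylated lysine, and GNE-781 occupies that pocket. MDSC are immature myeloid cells that accumulate in tumours and suppress T cells. The monocytic kind resembles monocytes and the granulocytic kind resembles neutrophils, a short-lived cell that relies heavily on glycolysis. Among the stress pathways treated here, heat-shock factor drives chaperone genes, and hypoxia-inducible factor drives genes of glycolysis and oxygen supply, with CBP and EP300 among its coactivators.

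Library depth ran from 12.37 to 26.64 mega-counts over the 20 libraries. In gMDSC vehicle, libraries 1 to 4 had 12.37 to 14.1 mega-counts, below all gMDSC CBPi (19.74 to 22.43) and mMDSC CBPi libraries (19.49 to 26.64), and library 5 had 23.27. The part of depth in the differences was not tested. The biological coefficient of variation was 0.372 in mMDSC vehicle, 0.375 in mMDSC CBPi and 0.381 in gMDSC CBPi, but 0.57 in gMDSC vehicle. Within gMDSC vehicle, library 3 had a median correlation of 0.856 with its group, and the others had 0.914 to 0.927. The gates were partly visible in the RNA. Cxcr2, a chemokine receptor of neutrophils, was at 964 to 1832 CPM (counts scaled to library size) in gMDSC vehicle and 663 to 1063 in gMDSC CBPi, and at most 3.40 in mMDSC. Ly6g itself was low, at 0.442 to 9.03 CPM in gMDSC vehicle, 0.531 to 2.13 in gMDSC CBPi and at most 0.404 in mMDSC. Adgre1, which encodes F4/80, was at 438 to 1533 CPM over all libraries although the sort was negative for the protein. RNA was measured in bulk, so fewer cells of a type and less RNA per cell cannot be told apart.

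Of 12688 genes tested, 92 had a different response in the 2 cell types by edgeR's quasi-likelihood test at a Benjamini-Hochberg adjusted p under 0.05, which is 0.725% of the genes tested. The difference was positive in 63 genes (0.497%) and negative in 29 (0.229%). Without TMM scaling, which corrects library totals for composition, they numbered 60 and 46, so that the share of positive ones was 56.6% in place of 68.5%. At an unadjusted p under 0.05 there were 727 in each direction. Among the 92, the gMDSC response was the larger in size in 69 genes and the mMDSC response in 23. Among the 63, the median response was 1.77 in gMDSC and -0.04 in mMDSC. Among the 29, it was -1.14 in gMDSC and 0.33 in mMDSC. The responses had opposite signs in 45 of the 92. The shares of all genes tested with a larger gMDSC response or with opposite signs were not counted. Over all genes tested, the median size of the response was 0.44 in gMDSC and 0.29 in mMDSC, so gMDSC values were also larger in general. Such a size also grows with the spread between libraries, which was widest in gMDSC vehicle. The part of that spread was not tested. The median difference over all genes was -0.04.

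**Figure D1:**
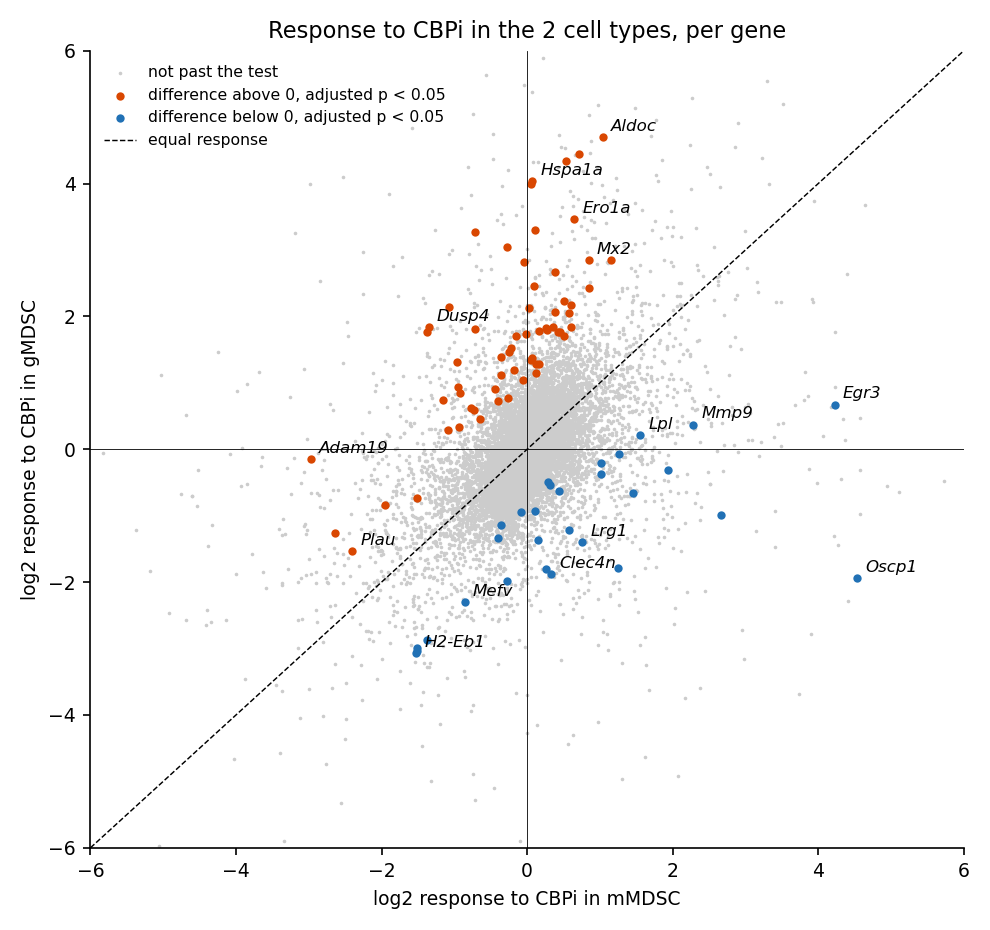
Log2 response to CBPi in mMDSC (horizontal axis) against gMDSC (vertical axis), 1 point per gene tested, with the dashed line marking equal responses. Genes past the test are coloured, 63 above the line and 29 below it, and 43 genes lie outside the axes, of which 1, Syt3, passed the test at a mean of at most 1.87 CPM. Most coloured points above the line sit near 0 on the horizontal axis.

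The number of genes past the test (the calls) depended on single libraries. Leaving out gMDSC CBPi 7 gave 23 positive and 11 negative differences, and leaving out gMDSC vehicle 4 gave 36 and 11. Without gMDSC CBPi 6 there were 38 and 19, without mMDSC CBPi 10 there were 43 and 10, and without mMDSC vehicle 5 there were 47 and 11. Leaving out mMDSC vehicle 1, 2 or 3, mMDSC CBPi 6, 8 or 9, gMDSC vehicle 1 or gMDSC CBPi 8 took the negative differences to between 11 and 16. Of the 47 genes past the test that are named here by rule, 22 kept the call whichever single library was left out, and none changed sign under any alternative run.

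Heat-shock chaperones held the genes with the smallest adjusted p. Of 15 tested members of the list, 4 had a positive difference past the test and none a negative one, against 0.497% and 0.229% of all genes tested. At an unadjusted p under 0.05 there were 7 positive and 0 negative members, and DESeq2 called 5 and 0. The list's median difference was 0.59 against -0.04 over all genes, and 10 of 15 differences were positive (47.0% over all genes). The 4 genes were Hspa1a and Hspa1b, which encode the stress-inducible HSP70 chaperone, Hspa8, which encodes its constitutive relative HSC70, and Hsp90aa1, which encodes the inducible HSP90. Hspa1a (gene ID 193740, chromosome 17, 34969359 to 34972156, GRCm38.p6) was at 1375, 795, 591, 578 and 317 CPM in gMDSC CBPi 6 to 10. In gMDSC vehicle 1 to 5 it was at 48, 53.4, 48.5, 31.4 and 42.1 CPM. The corresponding values were 78.2, 79.8, 71.9, 64.1 and 60.02 CPM in mMDSC CBPi and 109, 88.2, 64.8, 41.1 and 34 CPM in mMDSC vehicle. Every gMDSC CBPi library thus lay above every other library, with library 6 the highest, while the mMDSC groups overlapped. The response was 4.03 ± 0.35 in gMDSC and 0.07 ± 0.31 in mMDSC, and the difference was 3.96 ± 0.46 (± standard error, here and below, with 5 libraries in each group; adjusted p = 0.00026).

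Hspa1b, a near-identical neighbour of Hspa1a with which it can share reads, gave 3.94 ± 0.49 (adjusted p = 0.000398), so the split between the pair is uncertain. Hspa1a also overlaps an exon of another protein-coding gene model on the opposite strand, and the strand setting of the counting is not known. Hspa8 lies elsewhere in the genome, and its exons overlap small nucleolar RNA genes on the same strand. It was at 73.4, 76.1, 50.7, 71.1 and 52.2 CPM in gMDSC CBPi and 20.4, 14.2, 18.6, 18.7 and 18.4 CPM in gMDSC vehicle. The mMDSC values were 21.3, 18.4, 26.9, 21.5 and 28.9 CPM with CBPi and 18.3, 21.4, 16.4, 20.7 and 14.9 CPM with vehicle. The gMDSC groups were fully apart and the mMDSC groups overlapped, with a difference of 1.49 ± 0.24 (adjusted p = 0.00385). Hsp90aa1 was at 53.2 to 142 CPM in gMDSC CBPi, at 11.4 to 38.6 CPM in gMDSC vehicle, and at 11.7 to 21.8 and 10.4 to 21.2 CPM in mMDSC with CBPi and vehicle. Its difference was 2.09 ± 0.45 (adjusted p = 0.0329), and the call ended without gMDSC vehicle 4 or 5 or gMDSC CBPi 6 or 7 (adjusted p up to 0.0645). Cofactors of HSP70 had values on the same side that did not pass, with 1.02 ± 0.29 for Dnaja1 (adjusted p = 0.126) and 1.00 ± 0.38 for Hsph1 (adjusted p = 0.296). Dnajb1, which did not pass, was higher with CBPi in both cell types without overlap. It was at 132.5 to 167.9 against 74.8 to 98.3 CPM in mMDSC and 215 to 617.9 against 104.3 to 190.8 CPM in gMDSC. Hspb1, at no more than 1.79 CPM, was also higher in both without overlap. Hspd1 and Hspe1, the mitochondrial chaperonin, had differences of -0.36 ± 0.26 and -0.10 ± 0.45, and Hsf1, the heat-shock factor, -0.23 ± 0.21.

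**Figure D2:**
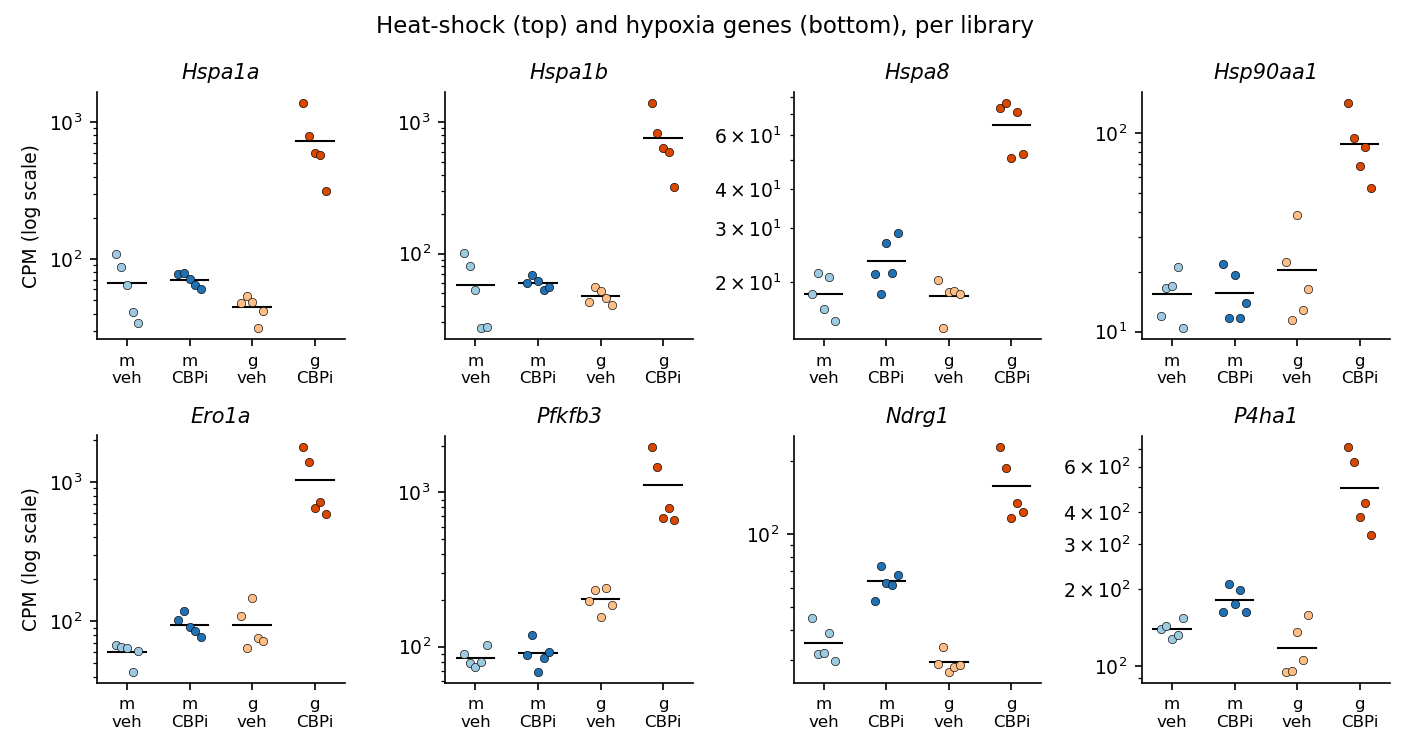
CPM (log axis) of 8 genes in each library, with m and g for mMDSC and gMDSC, veh for vehicle, points for libraries and bars for group means. In every panel the 5 gMDSC CBPi libraries lie above all gMDSC vehicle libraries. The mMDSC groups are closer together, and they stand apart only for Ero1a, Ndrg1 and P4ha1. All 8 genes had a difference past the test.

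The promoter of Hspa1a is shown because the core of the heat-shock element, GAANNTTC, was searched in the promoters of the list on both strands, a motif chosen after the values were seen. Promoters are RefSeq windows of 250 bases before to 50 after a start site, in GRCm38.p6. A window was at hand for 9878 of the 12688 genes tested. The core was in 7 of 11 such windows of the heat-shock list (63.6%), in 574 of the 9878 (5.81%) and in 3 of 48 of the genes with a positive difference (6.25%). A match is a description of the letters and not of a bound site. The list holds chaperone genes, which heat-shock factor drives, so its share does not bear on the difference in response. The Hspa1a window is chr17:34972107-34972406 on the minus strand, and capitals mark the match, which begins 104 bases before the start site.
Hspa1a: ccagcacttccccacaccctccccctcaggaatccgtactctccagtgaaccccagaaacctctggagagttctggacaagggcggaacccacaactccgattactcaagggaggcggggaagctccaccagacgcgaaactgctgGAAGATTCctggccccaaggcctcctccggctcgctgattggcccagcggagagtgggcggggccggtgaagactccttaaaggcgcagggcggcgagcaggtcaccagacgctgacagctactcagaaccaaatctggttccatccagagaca

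Hypoxia and glycolysis genes formed the list with the most calls. Of 35 tested members, 11 had a positive difference past the test and none a negative one, against 0.497% and 0.229% of all genes tested. The difference was positive in 32 of the 35, against 47.0% of all genes tested, and the median was 1.03. The list's median response was 1.56 in gMDSC and 0.27 in mMDSC. In order of the difference the 11 were Ero1a, Pfkfb3, Bnip3, Hif1a, Vegfa, P4ha1, Ndrg1, Pfkl, Pfkp, Tpi1 and Ldha. At an unadjusted p under 0.05 there were 22 positive members and 0 negative ones, and DESeq2 called 16 and 0. Limma-voom, limma-voom with weights per group and the fit with a replicate block each called 7 and 0.

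Ero1a encodes an oxidase of the endoplasmic reticulum that forms disulfide bonds in new proteins, and Pfkfb3 encodes the enzyme that makes fructose 2,6-bisphosphate, an activator of glycolysis. Ero1a (gene ID 50527, chromosome 14, 45283087 to 45318572) was at 1792, 1396, 650.3, 719.6 and 593 CPM in gMDSC CBPi 6 to 10 and 109.7, 64.3, 146, 76.1 and 71.7 CPM in gMDSC vehicle 1 to 5. In mMDSC it was at 102, 118, 91.4, 84.9 and 77.3 CPM with CBPi and 68, 65, 64.1, 43.7 and 61.1 CPM with vehicle. CBPi libraries lay above vehicle libraries in both cell types, by far more in gMDSC. The responses were 3.46 ± 0.30 in gMDSC and 0.65 ± 0.28 in mMDSC, and the difference was 2.81 ± 0.40 (adjusted p = 0.00153). Pfkfb3 (gene ID 170768, chromosome 2, 11471430 to 11554071) was at 1979, 1467, 687, 795 and 666 CPM in gMDSC CBPi and 197, 233, 156, 239.9 and 187 CPM in gMDSC vehicle. Its values were 87.9, 119, 69, 85 and 92.5 CPM in mMDSC CBPi and 89, 78.5, 74, 79.9 and 103 CPM in mMDSC vehicle. The mMDSC groups overlapped, and the difference was 2.37 ± 0.35 (adjusted p = 0.00274). Hk2, the inducible hexokinase, had a difference of 1.98 ± 0.49 that did not pass (adjusted p = 0.0601).

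Upstream in the pathway, Hif1a, the oxygen-regulated subunit of the factor itself, was at 1745, 1348, 683, 731 and 627 CPM in gMDSC CBPi. The gMDSC vehicle values were 439, 379, 220.2, 451 and 376 CPM, below all of these. The mMDSC values overlapped, at 245 to 338 CPM with CBPi and 290.5 to 437 CPM with vehicle. The difference was 1.70 ± 0.35 (adjusted p = 0.0258), and the call ended without gMDSC CBPi 7 (adjusted p = 0.0578). Hif1a shares exons with other gene models on both strands, which the counting may not separate. Egln1, an oxygen sensor that marks HIF1A for degradation, had a difference of 1.37 ± 0.34 and did not pass (adjusted p = 0.0571).

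P4ha1, a collagen prolyl hydroxylase, and Ndrg1, a stress-induced gene, both had responses in each cell type. P4ha1 was at 717, 623, 382, 435 and 325 CPM in gMDSC CBPi and 95.5, 95.6, 136, 106 and 158 CPM in gMDSC vehicle. With 163, 209.8, 175, 198 and 164 CPM in mMDSC CBPi and 139.7, 144, 128, 132 and 154 CPM in mMDSC vehicle, the groups stood apart there too, by less. The difference was 1.69 ± 0.27 (adjusted p = 0.00339). Ndrg1 was at 229.7, 187, 117, 135 and 123 CPM in gMDSC CBPi and 28.9, 34.2, 27, 28.3 and 28.8 CPM in gMDSC vehicle, against 53.1 to 74 and 29.7 to 44.7 CPM in mMDSC with CBPi and vehicle. Its difference was 1.58 ± 0.25 (adjusted p = 0.00339). The calls of Ero1a, Pfkfb3, P4ha1 and Ndrg1 held under every alternative run.

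The glycolytic enzymes with a positive difference covered several steps. They were Pfkl and Pfkp, subunits of phosphofructokinase, Tpi1, triose phosphate isomerase, and Ldha, lactate dehydrogenase. Pfkl gave 1.56 ± 0.35 (adjusted p = 0.041) and Pfkp gave 1.53 ± 0.32 (adjusted p = 0.0283). Exons of Pfkp and Tpi1 overlap those of other protein-coding genes on the opposite strand, which the counting may not separate. Tpi1 gave 1.20 ± 0.26 (adjusted p = 0.0355), and Ldha, with 953, 701, 499.9, 549.5 and 417 CPM in gMDSC CBPi and 274, 239, 339, 282 and 266 CPM in gMDSC vehicle, gave 1.03 ± 0.23 (adjusted p = 0.0391). In all 4 the gMDSC groups did not overlap. They were also apart in members that did not pass, such as Hk1 and Slc2a1. The share of all genes tested with gMDSC groups apart was not counted. The calls of the 4 enzymes rested on single libraries. Pfkp lost its call without gMDSC vehicle 4 or gMDSC CBPi 7 (adjusted p up to 0.0645), and Ldha without gMDSC vehicle 1, 2, 4 or 5 or gMDSC CBPi 7 (up to 0.0793). Tpi1 lost its call without any of 7 libraries, namely mMDSC CBPi 10, gMDSC vehicle 1, 2, 4 or 5, and gMDSC CBPi 6 or 7 (up to 0.0766). Pfkl lost it without any of 11, namely mMDSC vehicle 1 or 5, mMDSC CBPi 8 to 10, gMDSC vehicle 1, 2, 4 or 5, and gMDSC CBPi 6 or 7 (up to 0.0845). Bnip3, a mitophagy receptor, was low at 19.8, 17.5, 9.33, 14.8 and 8.22 CPM in gMDSC CBPi and 1.33 to 2.71 CPM in gMDSC vehicle, with a difference of 2.29 ± 0.45 (adjusted p = 0.0186). That call ended without gMDSC CBPi 7 (adjusted p = 0.0534) and with limma-voom (0.0928). Gapdh and Pgk1 were at means of at most 12 and 9.02 CPM in any group and gave 0.33 ± 0.47 and 0.24 ± 0.42. Both levels were far below those of Ldha, and whether the counting kept all reads of these genes is not known.

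**Figure D3:**
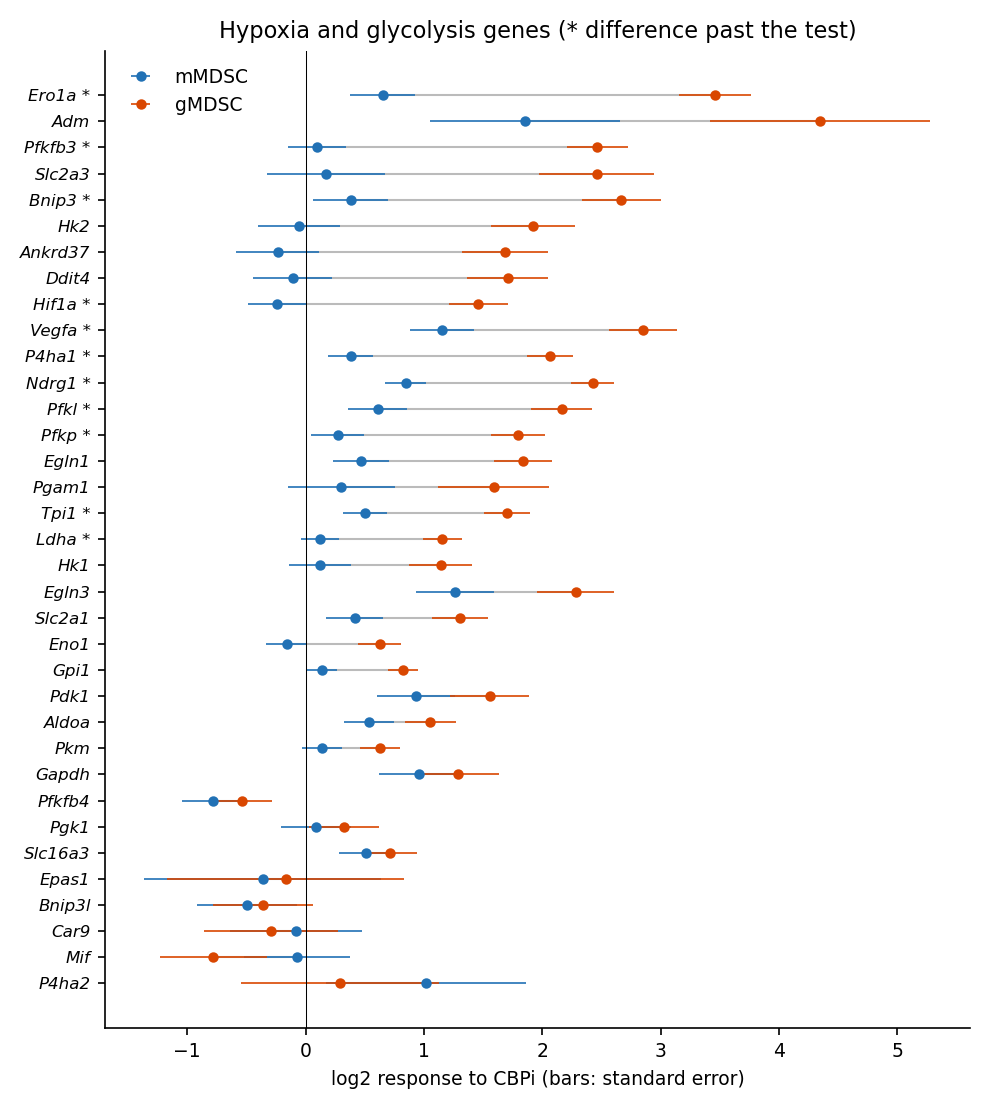
Log2 response to CBPi in mMDSC and gMDSC with its standard error for the 35 tested hypoxia and glycolysis genes, sorted by their difference, with an asterisk where the difference passed the test. The gMDSC point lies to the right of the mMDSC point for 32 of the 35 genes.

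Among the gMDSC CBPi libraries, 6 and 7 held the highest levels of these genes. Library 6 was the highest of its group for 38 of the 50 tested members of the heat-shock and hypoxia lists (76.0%), against 27.1% of all genes tested. Libraries 6 and 7 were the 2 highest for 35 of the 50 (70.0%), against 20.1% of all genes. Without both, 4 of the 11 hypoxia calls and 3 of the 4 heat-shock calls were made, and the list medians were 0.69 and 0.51. Over all genes that left 18 positive and 18 negative differences. Of the 47 named genes past the test 18 kept the call, and none reversed. Without gMDSC CBPi 7 alone the hypoxia list had 4 calls, and without gMDSC vehicle 4, 1 or 5 it had 6, 7 and 7.

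The promoters of 4 hypoxia genes are shown because ACGTG, the core of the hypoxia response element, was searched on both strands, again chosen after the values were seen. It was in 19 of 31 windows of the list (61.3%) and in 2570 of all 9878 (26.0%). Over all genes with a positive difference it was in 14 of 48 windows (29.2%), and with a negative one in 4 of 20. The list holds genes of glycolysis and oxygen supply, which hypoxia-inducible factor drives, so its share does not bear on the difference in response. Only windows with a match are shown. The windows are Ero1a chr14:45318523-45318822 (minus strand), Pfkfb3 chr2:11553880-11554179 (minus), P4ha1 chr10:59323046-59323345 (plus) and Bnip3 chr7:138909457-138909756 (minus). Capitals mark the matches, which begin 63, 60 and 16 bases before the start site in Ero1a, Pfkfb3 and P4ha1. In Bnip3, matches on both strands begin 108 and 107 bases before it and overlap in CACGTG, which is also the E-box.
Ero1a: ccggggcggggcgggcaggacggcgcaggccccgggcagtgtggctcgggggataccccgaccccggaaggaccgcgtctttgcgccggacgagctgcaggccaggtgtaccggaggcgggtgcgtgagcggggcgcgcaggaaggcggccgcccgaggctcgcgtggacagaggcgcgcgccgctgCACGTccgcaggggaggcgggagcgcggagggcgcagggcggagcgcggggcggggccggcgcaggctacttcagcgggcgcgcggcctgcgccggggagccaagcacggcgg
Pfkfb3: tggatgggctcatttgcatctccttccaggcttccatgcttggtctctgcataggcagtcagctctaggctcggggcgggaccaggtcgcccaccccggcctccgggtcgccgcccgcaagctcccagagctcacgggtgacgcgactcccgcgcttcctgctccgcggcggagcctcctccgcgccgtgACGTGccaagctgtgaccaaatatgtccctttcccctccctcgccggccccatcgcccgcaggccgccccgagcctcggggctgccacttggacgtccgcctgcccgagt
P4ha1: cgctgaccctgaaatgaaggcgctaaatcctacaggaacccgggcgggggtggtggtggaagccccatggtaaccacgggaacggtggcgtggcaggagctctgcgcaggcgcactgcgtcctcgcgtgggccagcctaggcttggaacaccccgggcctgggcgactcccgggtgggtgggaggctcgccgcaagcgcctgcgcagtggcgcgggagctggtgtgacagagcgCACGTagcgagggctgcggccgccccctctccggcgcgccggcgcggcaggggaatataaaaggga
Bnip3: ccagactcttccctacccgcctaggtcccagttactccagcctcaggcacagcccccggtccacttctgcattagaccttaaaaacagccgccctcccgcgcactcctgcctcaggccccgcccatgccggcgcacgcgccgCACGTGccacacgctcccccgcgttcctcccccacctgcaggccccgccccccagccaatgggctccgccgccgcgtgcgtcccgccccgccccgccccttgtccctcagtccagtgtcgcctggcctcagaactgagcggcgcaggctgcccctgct

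Motifs of factors that bind CBP were also searched on both strands. The cyclic AMP response element TGACGTCA was in 2 of 48 windows of genes with a positive difference (4.17%), 1 of 20 with a negative one (5.00%) and 330 of all 9878 (3.34%). Its half-site TGACG, which the full element contains, was in 13 of 48, 4 of 20 and 3115 of 9878 (31.5%). The AP-1 motif TGANTCA was in 12.5%, 5.00% and 5.19%, and the E-box CACGTG, which contains ACGTG, in 14.6%, 5.00% and 10.2%.

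Matrix, protease and coagulation genes came next, with 4 positive and 1 negative difference past the test among 29 tested. The shares over all genes tested were 0.497% and 0.229%. The list's median difference was 0.62, and 23 of 29 were positive. DESeq2 called 7 and 3, the replicate block 2 and 2, and limma-voom with weights 3 and 0. Thbs1 encodes thrombospondin-1, a secreted inhibitor of angiogenesis, and F13a1 the A subunit of coagulation factor XIII. Thbs1 (gene ID 21825, chromosome 2, 118111876 to 118127133) was at 1598, 1365, 477, 359 and 478 CPM in gMDSC CBPi and 31.3, 50.3, 22.7, 36.1 and 56 CPM in gMDSC vehicle. Libraries of mMDSC had 249, 602, 134, 487 and 343 CPM with CBPi and 166, 136, 292, 174 and 343 CPM with vehicle. In vehicle, gMDSC lay below all mMDSC libraries, and with CBPi the 2 cell types overlapped. The difference was 3.73 ± 0.61 (adjusted p = 0.00385). F13a1, which is also on the list of monocyte markers, had the same shape at a lower level. It was at 32.4, 34.9, 52.9, 12.7 and 15.5 CPM in gMDSC CBPi and 1.60, 3.38, 0.763, 4.42 and 4.38 CPM in gMDSC vehicle, and at 164 to 417 and 168 to 370.4 CPM in mMDSC with CBPi and vehicle. All gMDSC libraries stayed below all mMDSC libraries. Its difference was 3.19 ± 0.55 (adjusted p = 0.00767), and limma-voom did not call it (adjusted p = 0.103).

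The summed level of the 24 monocyte markers ran from 20350 to 29060 CPM in gMDSC vehicle and from 27680 to 37880 in gMDSC CBPi, with none at 0. In mMDSC, the monocytic cells, it ran from 15140 to 20590 and from 16780 to 20270, with lower medians than in gMDSC. The sum is therefore no measure of the share of monocytes. Of the 24 tested, F13a1 alone passed the test, and the median difference was 0.21. The list's median response was -0.22 in gMDSC and -0.36 in mMDSC. Ly6c2, a monocyte surface antigen, was at 20.7 to 67.4 CPM in gMDSC vehicle and 12.7 to 19.9 in gMDSC CBPi, and at 618 to 1200 and 296 to 409 CPM in mMDSC. Ccr2, also on the list, was at 80.7 to 310 CPM in gMDSC vehicle and 29.7 to 42.1 in gMDSC CBPi. In mMDSC it was at 516 to 778 and 173 to 227 CPM. The part of other cells in the values of F13a1 was not tested. Vcan, a matrix proteoglycan and monocyte marker, had a difference of 3.07 ± 0.74 that did not pass (adjusted p = 0.0547).

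Other genes of the list differed through mMDSC. Adam19, a membrane metalloprotease, was at 0.627, 2.59, 1.22, 1.33 and 0.838 CPM in mMDSC CBPi and 9.18, 13.2, 7.95, 8.16 and 13.4 CPM in mMDSC vehicle. The gMDSC values were 14.6, 29.6, 15.8, 10.6 and 22.4 CPM with CBPi and 15.7, 33.4, 7.54, 24.7 and 21.3 CPM with vehicle. The mMDSC groups stood apart and the gMDSC groups overlapped. The responses were -2.97 ± 0.41 in mMDSC and -0.15 ± 0.37 in gMDSC, a difference of 2.82 ± 0.55 (adjusted p = 0.0175). Plau, the urokinase protease, was lower with CBPi in both cell types, with responses of -2.41 ± 0.15 in mMDSC and -1.54 ± 0.15 in gMDSC. The difference was 0.87 ± 0.20 (adjusted p = 0.0442), and the call ended without any of 14 libraries, all but mMDSC vehicle 3 and 4, mMDSC CBPi 7, 9 and 10, and gMDSC vehicle 2 (up to 0.0831). Plau was also not called with library totals alone (0.141), the replicate block (0.129), no filter on low counts (0.0556) or limma-voom (0.0506, and 0.0666 with weights).

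Mmp9, the gelatinase of neutrophil granules, was the member with a negative difference. It was at 13.2, 18.7, 8.65, 11.5 and 11.9 CPM in mMDSC CBPi and 0.982, 2.25, 3.57, 2.98 and 3.41 CPM in mMDSC vehicle, so it stayed low in mMDSC while the groups stood apart. In gMDSC it was at 1273, 1120, 934, 651 and 912 CPM with CBPi and 842, 789, 635, 878 and 638 CPM with vehicle, and these overlapped. The difference was -1.91 ± 0.35 (adjusted p = 0.0142, 0.0577 with limma-voom). The summed level of 22 neutrophil markers in mMDSC ran from 1933 to 2336 CPM with vehicle and from 2255 to 3176 with CBPi, with none at 0. Their part in the mMDSC response of Mmp9 was not tested. Of that list 2 passed, Mmp9 and Lrg1, both with a negative difference, and the median was -0.30. Spp1, osteopontin, had -1.23 ± 0.30 and did not pass (adjusted p = 0.0547).

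**Figure D4:**
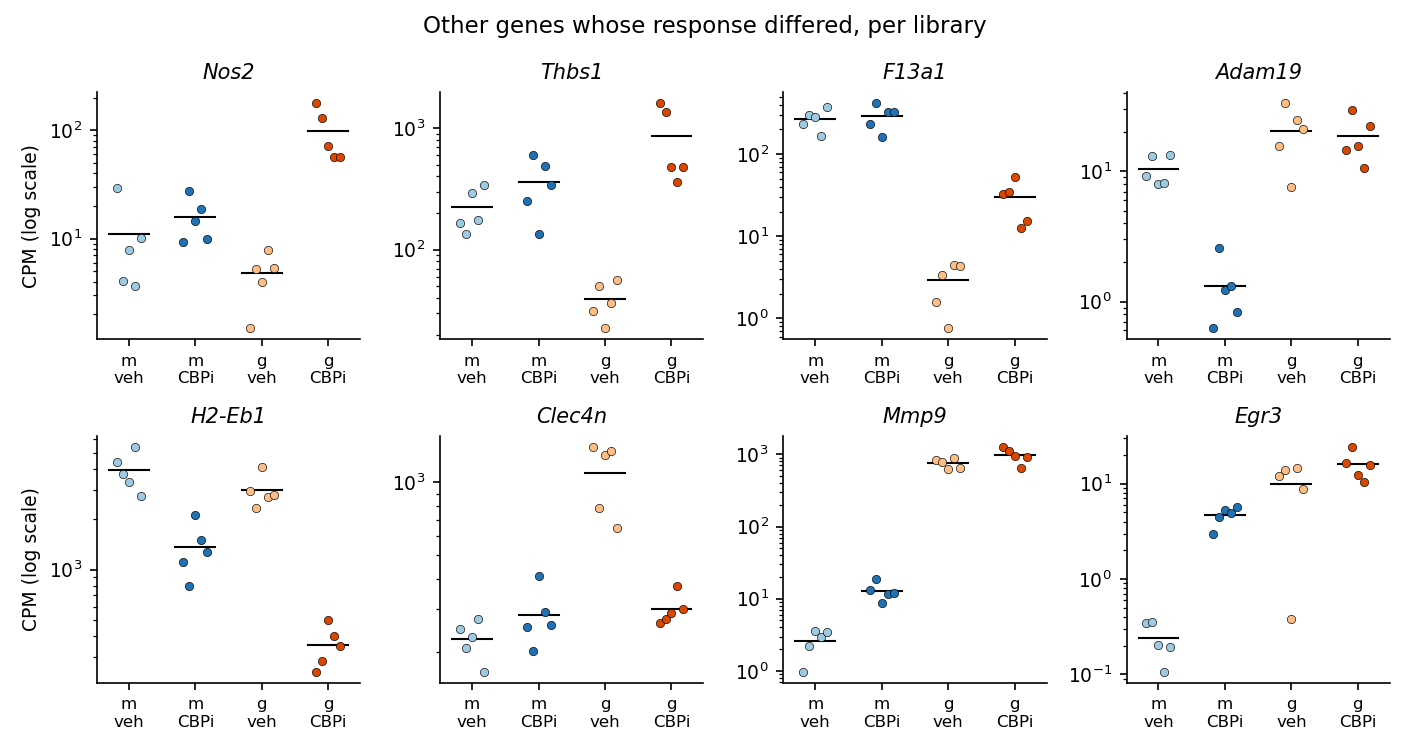
CPM (log axis) of 8 further genes in each library, drawn as in the plot of heat-shock and hypoxia genes. Nos2, Thbs1 and F13a1 separate vehicle from CBPi in gMDSC, Adam19, Mmp9 and Egr3 separate them in mMDSC, and H2-Eb1 does so in both.

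MDSC suppress T cells through a set of effectors. Of 21 tested, 4 had a positive difference past the test and none a negative one, against 0.497% and 0.229% of all genes tested. At an unadjusted p under 0.05 there were 5 positive and 3 negative, against 727 of 12688 in each direction over all genes. DESeq2 called 5 and 1, and the median was 0.26. Limma-voom called 1 with or without weights per group, the replicate block 2, and no member was called without gMDSC CBPi 6 and 7 together. The 4 were Nos2, the inducible nitric oxide synthase, Vegfa, the angiogenic factor, Olr1, and Hmox1, heme oxygenase. Olr1 encodes the oxidised-lipoprotein receptor that marks human granulocytic MDSC. Vegfa is also among the hypoxia calls, and Hmox1 is also the call of the NRF2 and iron list, so these calls are not separate ones. Nos2 (gene ID 18126, chromosome 11, 78920787 to 78960226) was at 177, 128, 72, 56.3 and 56.4 CPM in gMDSC CBPi and 1.5, 5.24, 4.01, 7.86 and 5.35 CPM in gMDSC vehicle. In mMDSC it was at 9.29, 27.5, 14.4, 18.6 and 9.94 CPM with CBPi and 29.3, 4.07, 7.88, 3.62 and 10.04 CPM with vehicle, where library 1 was highest. The gMDSC groups stood apart and the mMDSC groups overlapped. The difference was 3.81 ± 0.73 (adjusted p = 0.0175), and it was not called by limma-voom (adjusted p = 0.0833) or without gMDSC CBPi 6 and 7 together (0.0982). Limma-voom with weights per group (0.174) and the replicate block (0.125) did not call it either. Vegfa was at 722, 446, 243, 277 and 243 CPM in gMDSC CBPi and 36.6 to 64 CPM in gMDSC vehicle, with 139 to 222 and 54.6 to 94.4 CPM in mMDSC CBPi and vehicle. Its responses were 2.85 ± 0.29 in gMDSC and 1.16 ± 0.27 in mMDSC, a difference of 1.69 ± 0.38 (adjusted p = 0.04). That call ended without any of 12 libraries, all but mMDSC vehicle 2, 4 and 5, mMDSC CBPi 7 and 9, and gMDSC CBPi 8 to 10 (up to 0.0785).

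Olr1 had responses of opposite sign. It was at 16.2 to 33.6 CPM in gMDSC CBPi and 7.19 to 14.9 CPM in gMDSC vehicle, and at 3.91 to 6.25 and 6.78 to 16.4 CPM in mMDSC with CBPi and vehicle. Neither pair of groups overlapped. The difference was 1.90 ± 0.38 (adjusted p = 0.0192), and the call ended without gMDSC CBPi 7 (0.0534). Hmox1 was at 1375, 876, 646, 676 and 459.7 CPM in gMDSC CBPi and 219.6, 196, 337, 199.5 and 190.5 CPM in gMDSC vehicle, while the mMDSC groups overlapped. It gave 1.56 ± 0.36 (adjusted p = 0.0443), lost without any of 12 libraries, all but mMDSC vehicle 1 and 4, mMDSC CBPi 6 and 7, gMDSC vehicle 3 and gMDSC CBPi 8 to 10 (up to 0.0845). The list held calls for 1 gene without gMDSC CBPi 7 and for 2 without mMDSC vehicle 3, mMDSC CBPi 8 or 10, or gMDSC vehicle 1, 2, 4 or 5. Without gMDSC CBPi 6 there were 2 positive calls and 1 negative one. Arginase-1 (Arg1), at a mean of at most 36.4 CPM, gave -0.63 ± 0.81 (adjusted p = 0.828), and Cd274, which encodes PD-L1, gave 0.72 ± 0.40 (adjusted p = 0.527). Neither passed.

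MHC class II genes present antigen to CD4 T cells. Of 16 tested, 3 had a negative difference past the test and none a positive one, against 0.229% and 0.497% of all genes tested. At an unadjusted p under 0.05 there were 7 negative and 0 positive, and DESeq2 called 6 and 0. Limma-voom called 2, and none was called with weights per group, without gMDSC CBPi 6 and 7 together, or without gMDSC vehicle 3 together with 4 or 5. The list's median response was -1.15 in gMDSC and -0.82 in mMDSC. The median difference was -0.62, and 14 of the 16 differences were negative. H2-Eb1, the beta chain of I-E, was at 246, 283, 497, 401 and 349 CPM in gMDSC CBPi and 2941, 2330, 4099, 2704 and 2789 CPM in gMDSC vehicle. The mMDSC libraries were at 1105, 799, 2126, 1511 and 1282 CPM with CBPi and 4402, 3738, 3353, 5426 and 2771 CPM with vehicle. No groups overlapped within a cell type. The responses were -3.07 ± 0.26 in gMDSC and -1.53 ± 0.24 in mMDSC, a difference of -1.54 ± 0.34 (adjusted p = 0.0355). H2-Aa, the alpha chain of I-A, gave -1.52 ± 0.36 (adjusted p = 0.0487), and Cd74, the invariant chain, -1.49 ± 0.33 (adjusted p = 0.0355). H2-Ab1 gave -1.14 ± 0.30 (adjusted p = 0.0871) and Ciita, the master regulator of these genes, -0.97 ± 0.39 (adjusted p = 0.338), and these did not pass.

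All 3 MHC class II calls sat close to the threshold. All ended without gMDSC CBPi 6 or 7, gMDSC vehicle 1 or 4, mMDSC vehicle 1, 2, 3 or 5, or mMDSC CBPi 6, 8, 9 or 10, with an adjusted p of up to 0.0898 for H2-Eb1, 0.12 for H2-Aa and 0.0898 for Cd74. All but Cd74 also ended without gMDSC vehicle 3 or gMDSC CBPi 10, and all but H2-Eb1 without gMDSC vehicle 5. Markers of dendritic cells, which carry abundant class II protein, summed to 1224 to 1511 CPM in gMDSC vehicle and 1061 to 1195 in gMDSC CBPi. In mMDSC they summed to 1247 to 1579 and 984 to 1105 CPM. Of 18 such markers 1 was at 0 in all libraries of gMDSC vehicle (Irf4) and 1 in mMDSC CBPi (Xcr1). None of the 18 passed by edgeR or DESeq2, and their median difference was 0.39. An unadjusted p under 0.05 was found for 4 of them, against 1454 of 12688 genes tested. Macrophage markers summed to 36920 to 80580 CPM in gMDSC vehicle and 19230 to 35350 in gMDSC CBPi, which stood apart. In mMDSC they overlapped, at 26030 to 37160 CPM with vehicle and 23310 to 28130 with CBPi. The part of either kind of cell in the class II values was not tested.

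Immediate-early genes follow growth factor and stress signals within minutes. Of 29 tested, 1 passed in each direction, against 0.497% (positive) and 0.229% (negative) of all genes tested, and the median was 0.02. Dusp4, a phosphatase of MAP kinases, was at 22.8, 20.4, 7.42, 12 and 11.1 CPM in gMDSC CBPi and 1.5, 4.48, 0.572, 7.86 and 6.00 CPM in gMDSC vehicle, which overlapped. In mMDSC it was lower with CBPi, at 7.56, 10.4, 3.71, 8.32 and 8.48 CPM against 17.9, 22, 17.9, 15.3 and 25.2 CPM. The difference was 3.19 ± 0.65 (adjusted p = 0.0247), and it lost the call without gMDSC CBPi 7 (0.0578). Egr3, a zinc-finger transcription factor, was at 2.94, 4.45, 5.29, 4.91 and 5.65 CPM in mMDSC CBPi and 0.344, 0.349, 0.202, 0.107 and 0.194 CPM in mMDSC vehicle, with no overlap. In gMDSC it was at 16.7, 24.5, 12.3, 10.5 and 15.9 CPM with CBPi and 12.2, 14, 0.382, 14.5 and 8.89 CPM with vehicle, where library 3 was far below the rest. The difference was -3.55 ± 0.77 (adjusted p = 0.0344), but limma-voom gave an adjusted p of 0.345. Leaving out any of 11 libraries, all but mMDSC vehicle 1 and 2, mMDSC CBPi 6 and 7, gMDSC vehicle 2, 3 and 5, and gMDSC CBPi 9 and 10, also ended that call (up to 0.0724). Egr1 gave -0.49 ± 0.37 (adjusted p = 0.665) with responses of 1.07 ± 0.26 in gMDSC and 1.56 ± 0.26 in mMDSC.

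The negative side held fewer genes and no list with more than 3 calls. Clec4n encodes Dectin-2, a fungal pattern receptor of myeloid cells. It was at 263, 272, 289, 374 and 299 CPM in gMDSC CBPi and 1405, 786, 1300, 1349 and 649 CPM in gMDSC vehicle, with no overlap. In mMDSC it was at 252, 201, 409.5, 291 and 257 CPM with CBPi and 248, 206, 229, 274 and 165 CPM with vehicle, which overlapped. With CBPi all 5 gMDSC libraries lay within the range of mMDSC. The difference was -2.20 ± 0.30 (adjusted p = 0.00148), and the gene lies on chromosome 6, 123229843 to 123247024. It was the 1 call among 29 tested lectin, TREM and Fc receptors, whose median was -0.01.

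Mefv encodes pyrin, an inflammasome sensor, and was the 1 call among 21 genes of the interleukin-1 family and inflammasome. It was at 77.4, 69.4, 46.4, 63.4 and 44.5 CPM in gMDSC CBPi and 347, 275, 258, 361 and 238 CPM in gMDSC vehicle, and at 60.2 to 91 and 125 to 158 CPM in mMDSC with CBPi and vehicle. All groups stood apart within a cell type, and the difference was -1.44 ± 0.23 (adjusted p = 0.00339). Lrg1, a secreted glycoprotein of neutrophil granules, was at 1210, 929, 694, 738 and 810.4 CPM in gMDSC CBPi and 2151, 1908, 3845, 2277 and 1402 CPM in gMDSC vehicle. Its mMDSC values overlapped, and it gave -2.15 ± 0.40 (adjusted p = 0.0148). The 22 neutrophil markers summed to 25630 to 64690 CPM in gMDSC vehicle and 29830 to 54050 in gMDSC CBPi, which overlapped. Fam122a, which encodes an inhibitor of protein phosphatase 2A, was at 46.4, 45.4, 41.4, 42.8 and 42 CPM in gMDSC CBPi and 174, 111, 236, 158 and 84.3 CPM in gMDSC vehicle, with no overlap. Its difference was -2.07 ± 0.33 (adjusted p = 0.00339). The calls of Clec4n, Mefv, Lrg1 and Fam122a held under every alternative run.

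Further down the list, Cxcl14, a chemokine, was higher with CBPi in mMDSC, at 7.43 to 10.2 against 2.01 to 5.08 CPM, while gMDSC overlapped. Its difference was -2.10 ± 0.40 (adjusted p = 0.0175). Galnt12, a glycosyltransferase, gave -2.24 ± 0.48 (adjusted p = 0.0344), with 8.48 to 26.3 CPM in mMDSC CBPi, 1.89 to 8.45 in mMDSC vehicle and overlapping gMDSC groups. Oscp1 was at 2.52, 4.21, 5.92, 3.56 and 4.81 CPM in gMDSC CBPi, 5.60, 13.3, 23.2, 29.7 and 9.16 CPM in gMDSC vehicle, at most 2.11 CPM in mMDSC CBPi and at most 0.116 CPM in mMDSC vehicle. Its fitted difference of -6.47 ± 0.98 (adjusted p = 0.00307, 0.0676 with limma-voom) rests on mMDSC values near 0 and is no measure of size. Cass4, an adhesion scaffold protein, was at 99.5, 93, 57.7, 42.6 and 59.7 CPM in gMDSC CBPi and 318, 223, 174, 461 and 212 CPM in gMDSC vehicle, with overlapping mMDSC groups. It gave -1.70 ± 0.39 (adjusted p = 0.0442). Galnt12 lost its call without any of 10 libraries, mMDSC vehicle 2, 3 or 5, mMDSC CBPi 7, 9 or 10, gMDSC vehicle 4 and gMDSC CBPi 6 to 8 (up to 0.0768). Cass4 lost it without any of 16, all but gMDSC vehicle 2, 3 and 5 and gMDSC CBPi 6 (up to 0.102). It was also not called with DESeq2 size factors (adjusted p = 0.0544), the replicate block (0.0694) or limma-voom (0.123, and 0.0952 with weights).

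Genes of lipid handling had 2 positive and 2 negative differences past the test among 33 tested, against 0.497% and 0.229% of all genes tested. The median was 0.31 (0.04 to 0.48 with 1 library left out at a time). Nr1h3 encodes LXR-alpha, a sterol-sensing nuclear receptor. It was lower with CBPi in mMDSC, at 96.6, 97.1, 90.4, 97.3 and 100.5 CPM against 224, 156, 128, 149 and 143 CPM. In gMDSC it was at 27.2, 35.1, 55.5, 57 and 51 CPM with CBPi and 35, 30.4, 28.8, 28 and 28 CPM with vehicle, where 4 of 5 CBPi libraries lay above the vehicle range and library 6 below it. The difference was 1.32 ± 0.26 (adjusted p = 0.0175, 0.0516 without TMM scaling). Plin2, a coat protein of lipid droplets, had opposite responses of 0.62 ± 0.21 in gMDSC and -0.76 ± 0.21 in mMDSC. It gave 1.39 ± 0.30 (adjusted p = 0.0323), and the call ended without gMDSC vehicle 4 or gMDSC CBPi 7 (up to 0.0704). The negative pair was Cd36, a fatty acid receptor, and Lpl, lipoprotein lipase, the latter named after its values were seen. Cd36 was at 13.3, 13.8, 19.5, 10.2 and 14.5 CPM in gMDSC CBPi and 53.1, 25.4, 18.4, 32.9 and 36.5 CPM in gMDSC vehicle, which overlapped, and at 24.8 to 42.5 and 16 to 25.8 CPM in mMDSC with CBPi and vehicle. Its difference was -1.80 ± 0.35 (adjusted p = 0.0175), and that of Lpl was -1.34 ± 0.29 (adjusted p = 0.0354). Cd36 was the 1 negative call left without mMDSC vehicle 2, 3, 4 or 5, mMDSC CBPi 6, 8, 9 or 10, or gMDSC CBPi 6, 7, 9 or 10. Without gMDSC CBPi 6 and 7 together there was none. Limma-voom with weights called no positive member.

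Interferon-stimulated genes differed little as a list, with 1 call among 32 tested type I genes and a median of 0.11. That call was Mx2, an antiviral GTPase. It was at 1028, 782, 504, 397 and 466.1 CPM in gMDSC CBPi and 111, 71.5, 79.7, 112 and 68.5 CPM in gMDSC vehicle. The mMDSC levels were 167, 195, 148, 193 and 187 CPM with CBPi and 69.3, 88.6, 123, 109 and 105 CPM with vehicle. Both cell types had CBPi libraries above all vehicle libraries. The responses were 2.85 ± 0.24 in gMDSC and 0.85 ± 0.23 in mMDSC, and the difference was 2.00 ± 0.32 (adjusted p = 0.00339), a call that held under every alternative run. Named after their values were seen, the interferon-inducible Ifi209 and Ifi205 gave 1.31 ± 0.21 (adjusted p = 0.00339) and 1.16 ± 0.25 (adjusted p = 0.0354). At an unadjusted p under 0.05 the list had 4 positive and 1 negative difference, and its median was -0.11 without gMDSC CBPi 6 and 7.

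Among genes named for the size of their difference, Ciart, a repressor of the circadian clock, was at 130.0, 105, 53.7, 74.1 and 41.6 CPM in gMDSC CBPi and 11.1, 7.86, 20.6, 10.5 and 7.71 CPM in gMDSC vehicle. The mMDSC groups overlapped, and the difference was 2.85 ± 0.55 (adjusted p = 0.0175, 0.0503 with limma-voom). Sgk1, a kinase induced by glucocorticoids, was lower with CBPi in mMDSC, at 203 to 429 against 562 to 699.7 CPM, and overlapped in gMDSC. It gave 1.38 ± 0.32 (adjusted p = 0.0442) as the 1 call among 12 glucocorticoid-responsive genes, and it is named through that list and not for size. Timd4, a phosphatidylserine receptor of macrophages, was at 5.17 to 6.34 CPM in mMDSC CBPi and 10.4 to 22.6 CPM in mMDSC vehicle. In gMDSC it was at 3.24 to 9.31 CPM with CBPi and 0.191 to 4.99 CPM with vehicle, and the difference was 3.14 ± 0.67 (adjusted p = 0.0323). Lrrk2, a kinase linked to Parkinson disease, was at 71.5, 53.5, 41.9, 11.3 and 34.1 CPM in gMDSC CBPi and 17.2, 6.93, 4.48, 3.44 and 15.8 CPM in gMDSC vehicle, with a difference of 3.21 ± 0.66 (adjusted p = 0.0266).

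Aldoc, an aldolase, Dmkn, dermokine, and Fry were at or under about 1 CPM in some gMDSC vehicle libraries, and their fitted sizes rest on these values. Aldoc was at 6.99, 9.22, 8.43, 13.4 and 7.31 CPM in gMDSC CBPi and 0.2, 1.27, 0.286, 0 and 0.0438 CPM in gMDSC vehicle and gave 3.66 ± 0.77 (adjusted p = 0.0323). Dmkn gave 3.32 ± 0.73 (adjusted p = 0.0359) and Fry gave 3.99 ± 0.92 (adjusted p = 0.0442), with 0.246 and 0.211 by limma-voom. The call of Lrrk2 ended without gMDSC CBPi 6 or 7 (up to 0.0578). That of Aldoc ended without mMDSC vehicle 1, mMDSC CBPi 10, gMDSC vehicle 1 or gMDSC CBPi 7 (up to 0.0578). That of Timd4 ended without any of 7 libraries, mMDSC vehicle 3, mMDSC CBPi 6, 9 or 10, gMDSC vehicle 1 or 4, or gMDSC CBPi 7 (up to 0.0641). Dmkn lost its call without any of 9 libraries, mMDSC vehicle 3, mMDSC CBPi 8 to 10, gMDSC vehicle 2, 4 or 5, or gMDSC CBPi 6 or 7 (up to 0.0771). Sgk1 lost it without any of 12, all but mMDSC vehicle 2 and 4, mMDSC CBPi 7 and 9, gMDSC vehicle 5 and gMDSC CBPi 8 to 10 (up to 0.0847). Fry lost it without any of 13, all but mMDSC vehicle 3 and 4, mMDSC CBPi 7 and 9, gMDSC vehicle 2 and gMDSC CBPi 8 and 10 (up to 0.0985).

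Several lists had no gene past edgeR's test. The count at an unadjusted p under 0.05 is given for each, against 1454 of 12688 over all genes tested. It was 8 of 37 genes of NF-kB and inflammatory cytokines, with a median difference of -0.10, and the cytokines Il6, Il1b and Tnf gave 0.63 ± 0.53, -0.35 ± 0.34 and 0.04 ± 0.30. It was 5 of 38 for the cell cycle (median -0.07), 3 of 28 for MYC and ribosome biogenesis (-0.21), 5 of 31 for the lysosome (0.04) and 1 of 20 for the unfolded protein and integrated stress response (-0.19). For presentation by MHC class I it was 0 of 21 (-0.18), for interferon-gamma-induced genes 2 of 24 (-0.16), and for chemokine and growth-factor receptors 5 of 23 (0.07). Toll-like receptors and adaptors had 2 of 20 (0.22), myeloid transcription factors 7 of 22 (0.04) and EGF receptor ligands 1 of 4 (-0.66). In these 11 lists DESeq2 called 6 genes, 2 each of NF-kB, the lysosome and the myeloid transcription factors, and limma-voom called 0.

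Among 26 acetyltransferases, deacetylases and BET genes none passed edgeR's test (median -0.05). An unadjusted p under 0.05 was found for 3 (1454 of 12688 over all genes tested), and DESeq2 called 2. The targets of the compound gave -0.29 ± 0.34 for Crebbp and 0.07 ± 0.24 for Ep300. Ccr2, the chemokine receptor of monocytes, gave -0.95 ± 0.32 (adjusted p = 0.217) with responses of -2.67 ± 0.24 in gMDSC and -1.72 ± 0.23 in mMDSC. Areg, which encodes amphiregulin, had large responses on the same side, 3.67 ± 0.51 in gMDSC and 4.65 ± 0.51 in mMDSC, and a difference of -0.97 ± 0.67 (adjusted p = 0.627). These values leave the size of a difference uncertain by their standard errors and do not show equal responses. STAT3 targets had 1 call in each direction among 23 (Hif1a and Lrg1, median 0.01), 17 NRF2 and iron genes had 1 (Hmox1, -0.04) and 18 neutrophil granule proteins had 1 (Mmp9, -0.41).

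**Figure D5:**
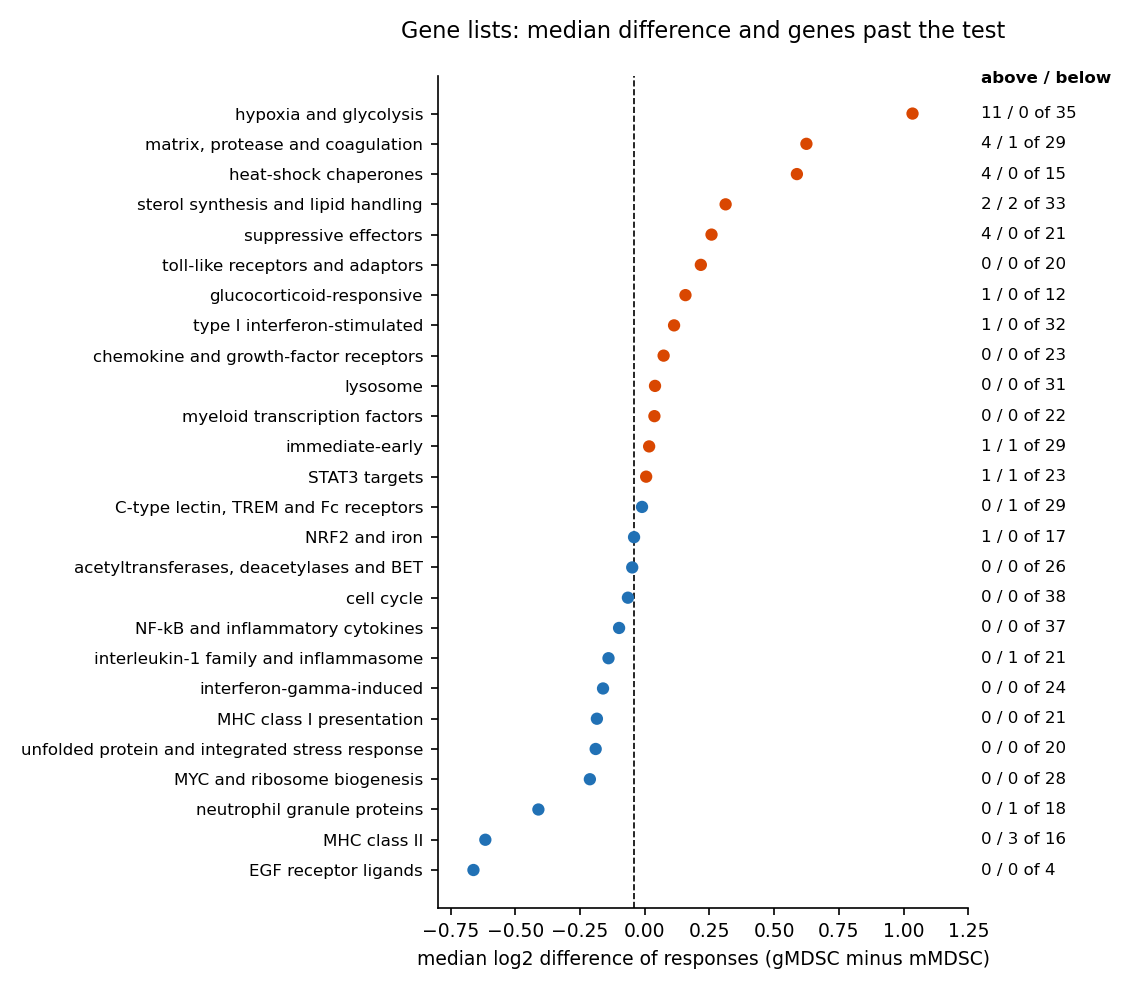
Median difference of responses (gMDSC minus mMDSC, log2) of each gene list, with the number of tested members past the test above and below 0 at the right and the median over all genes, -0.04, as a dashed line. Hypoxia and glycolysis lies furthest right at 1.03 with 11 of 35 members past the test.

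Markers of other cell types were read from lists of the same kind. Among 23 macrophage markers tested 1 passed, Timd4, with a list median of -0.19, and their summed level ran from 36920 to 80580 CPM in gMDSC vehicle and from 19230 to 35350 in gMDSC CBPi. In mMDSC it ran from 26030 to 37160 and from 23310 to 28130 CPM, so the groups stood apart in gMDSC and overlapped in mMDSC. By edgeR none passed among 11 lymphocyte and NK genes (median -0.05), 18 of stroma and endothelium (0.12), 6 of epithelium (-0.46), 5 of erythroid cells and platelets (-0.84) and 3 of mast cells, basophils and eosinophils (0.10). At an unadjusted p under 0.05 these lists had 2, 2, 2, 1 and 0 genes, against 1454 of 12688 over all genes tested. DESeq2 called 1, 0, 2, 1 and 0 of their genes. Epithelial markers summed to 36.2 to 72.1 CPM in gMDSC vehicle and 11.7 to 20.6 in gMDSC CBPi, and to 37.5 to 54.7 and 7.46 to 21.0 CPM in mMDSC. Both cell types thus had less with CBPi, and no list member was at 0 in all libraries of a group. Erythroid and platelet genes summed to 83.8 to 268 CPM in mMDSC CBPi and 26.0 to 53.9 in mMDSC vehicle, and to 50.4 to 68.3 and 28.0 to 81.2 CPM in gMDSC, where the groups overlapped. Markers of mast cells, basophils and eosinophils summed to 64.0 to 91.4 CPM in gMDSC vehicle and 18.6 to 26.1 in gMDSC CBPi, which stood apart, and to at most 7.93 CPM in mMDSC, with 5 or 6 of the 15 at 0 in each group. Lymphocyte and NK markers summed to 91.7 to 136 CPM in gMDSC vehicle and 37.4 to 75.3 in gMDSC CBPi, and to 136 to 207 and 90.9 to 122 CPM in mMDSC, lower with CBPi in both. The part of such cells in the differences was not tested.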

How the data were processed

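Poly-A RNA was measured in 20 libraries of the TruSeq V2 kit, 5 in each of 4 groups, with total counts of 12.37 to 26.64 mega-counts (M). The authors deposited counts, whole numbers without normalization, for 23090 genes in each file. The RPKM values that the authors deposited beside them were not used. Reads were aligned with GSNAP to GRCm38, per the submitters' processing notes, and neither the counter nor its annotation or strand setting is stated. Entrez gene IDs were matched to RefSeq symbols (GRCm38.p6), 21647 with a match and 1443 without. In the counts, 115 genes shared identical values with another gene in all libraries. Overlaps with other gene models were read from GENCODE M21.

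The difference of responses was 1 contrast of the 4 groups, fitted to all 20 libraries with edgeR 4.0.16 in R 4.3.3 (glmQLFit and glmQLFTest, TMM, filterByExpr with minimum count 10 and minimum total 15), with Benjamini-Hochberg adjustment over 12688 genes and a threshold of 0.05. A standard error (±) is the size of the log2 value over the root of F, and CPM carry the TMM scaling of all 20 libraries. The script was tested on simulated data. Alternatives were DESeq2 1.42.0, limma-voom 3.58.1, other scalings and filters, a replicate block, and leaving out libraries. Dropping gMDSC vehicle 3 and 4, gMDSC vehicle 3 and 5, or gMDSC CBPi 6 and 7 was chosen after seeing the data.

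The contrast and the 35 gene lists (722 genes, 75 of them in more than 1 list, 3 not matched) were chosen with earlier results of these data known. The lists have no test: they are described by counts and medians. Genes named are the 12 largest differences in each direction past the test with a mean of 10 CPM or more in some group, the members of each list with the smallest p (at most 3), members of the 3 lists with the most calls, and 18 fixed genes, 138 in all.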

Additional observations from a re-analysis of the deposited data

Results flagged for a closer look

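For 47 named genes the test of the difference itself passed, and they are marked for that. On the log2 scale (gMDSC minus mMDSC) the heat-shock genes gave 3.96 for Hspa1a, 3.94 for Hspa1b, 1.49 for Hspa8 and 2.09 for Hsp90aa1. The hypoxia and glycolysis genes gave 2.81 for Ero1a, 2.37 for Pfkfb3, 1.58 for Ndrg1, 1.69 for P4ha1, 2.29 for Bnip3, 1.70 for Hif1a, 1.69 for Vegfa, 1.56 for Pfkl, 1.53 for Pfkp, 1.20 for Tpi1 and 1.03 for Ldha. Matrix, protease and coagulation genes gave 3.73 for Thbs1, 3.19 for F13a1, 2.82 for Adam19, 0.87 for Plau and -1.91 for Mmp9. Nos2 gave 3.81, Olr1 1.90 and Hmox1 1.56. The class II genes gave -1.54 for H2-Eb1, -1.52 for H2-Aa and -1.49 for Cd74. Dusp4 gave 3.19 and Egr3 -3.55, Nr1h3 1.32, Plin2 1.39 and Cd36 -1.80, and Mx2 2.00. Other positive values were 3.99 for Fry, 3.66 for the aldolase Aldoc, 3.32 for Dmkn, 3.21 for Lrrk2, 3.14 for Timd4, 2.85 for Ciart and 1.38 for Sgk1. Other negative values were -6.47 for Oscp1, -2.24 for Galnt12, -2.20 for Clec4n, -2.15 for Lrg1, -2.10 for Cxcl14, -2.07 for Fam122a, -1.70 for Cass4 and -1.44 for Mefv.

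In 18 of 196 groups of 5 libraries that were examined, 1 library lay far from the other 4 by Dixon's criterion, which chance meets in about 1 in 20 groups. In gMDSC vehicle, library 3 was highest for Ciart (20.6 CPM), Hmox1 (337 CPM), Pfkl (215 CPM) and Tpi1 (222 CPM) and had the lowest median correlation with its group (0.856). Also in gMDSC vehicle, library 1 was highest for Pfkp (265 CPM), library 2 for Ndrg1 (34.2 CPM) and Aldoc (1.27 CPM), and library 5 for total counts (23.27 M). In mMDSC vehicle, library 4 was highest for Fam122a (56.2 CPM) and Olr1 (16.4 CPM), lowest for Ero1a (43.7 CPM) and lowest in its median correlation with the group (0.932). Library 1 of that group was highest for Nos2 (29.3 CPM) and library 5 lowest for Ciart (2.75 CPM). With CBPi, library 6 was highest for Dmkn in both mMDSC (17.9 CPM) and gMDSC (6.73 CPM), and gMDSC library 9 for Galnt12 (35.6 CPM).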

How the results depend on the processing

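Against 63 positive and 29 negative differences, leaving out 1 library at a time gave 23 to 85 and 10 to 32. DESeq2 gave 184 and 93, limma-voom 17 negative, limma-voom with weights per group 28 and 13, and library totals alone 46 negative. Without gMDSC vehicle 3 and 4 there were 13 negative, and without gMDSC CBPi 6 and 7 there were 18 and 18. The other scaling and filter alternatives and the fit without gMDSC vehicle 3 and 5 stayed within 1.5 times of both counts. Of the 47 named genes past the test, 12 kept the call under every alternative that tested them, DESeq2 kept 47, limma-voom 30 and limma-voom with weights 24. None reversed. Limma-voom did not call Fry, Nos2, Dmkn, Lrrk2, F13a1, Ciart, Oscp1, Egr3, Mmp9, Cass4, H2-Aa, Vegfa, Hmox1, Pfkl, Ldha, Bnip3 and Plau. The cause of these changes was not tested.

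The titles number libraries across groups, but the numbers are not a stated pairing. Same-numbered mMDSC and gMDSC libraries correlated at -0.031 to 0.168 (median 0.027) in their deviations from the group means, and 4 of 10 mMDSC libraries correlated best with their own number. The fit with a replicate block gave 33 positive and 19 negative differences. Genes under about 1 CPM in a group, such as Egr3, Oscp1 and Aldoc, have fitted sizes that depend on a few counts.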
